A study of Homo sapiens with 14 samples.

Results

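The replication-dependent histone genes encode the linker histone H1 and the core histones H2A, H2B, H3 and H4 that package newly copied DNA. They were taken as the genes whose current symbol is H1-1 to H1-6 or starts with H2AC, H2BC, H3C or H4C. Of 85 such symbols in the reference tables, 71 had a transcript of at least 200 nt among the 22410 genes of the files. Of those, 69 code for protein and 2 are pseudogenes. H2AC18 and H2AC19, H3C14 and H3C15, and H4C14 and H4C15 are pairs of identical copies listed under a shared transcript, so the 69 coding genes were read through 66 transcripts, of which 6 were H1, 16 H2A, 18 H2B, 12 H3 and 14 H4. Counts below are over these 66. The other 14 symbols, 13 pseudogenes and H2BC12L, were not analysed here.

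Poly(A)-selected RNA was sequenced from 14 libraries of cells of the human embryonic kidney line 293 Flip-In T-REx, which has a single site for a transgene, in a study of off-target editing. Every line carries that site, and the lines differ in what was placed there. SA1Q and SA2Q cells carried the gene of a SNAP-tagged ADAR1 or ADAR2 deaminase domain with a glutamate-to-glutamine change that is known to raise activity. SA1 and SA2 cells carried the same fusions without that change, and ctrl cells an empty vector. The SNAP tag bonds to a modified guide RNA. Cells of the groups whose names end in +gRNA received a guide, so that both glutamine lines were sequenced with it (SA1Q+gRNA, SA2Q+gRNA) and without it (SA1Q, SA2Q). The wild-type lines were sequenced with it (SA1+gRNA and SA2+gRNA), and ctrl without it. Each of the 7 groups had 2 libraries, described in the design text as independent experiments. The labels name neither the guide's target nor how the transgene was induced, if it was, and no wild-type SA1 or SA2 group without guide was analysed. The study therefore allows the glutamine forms and the wild-type forms to be compared only with a guide present.

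Replication-dependent histone genes are transcribed mostly in S phase, and many lie in clusters, often as H2A and H2B genes that start back to back from a shared promoter region. Their mRNAs are unusual in ending in a conserved stem-loop, bound by the stem-loop binding protein SLBP, in place of a poly(A) tail. Some of the genes also make longer transcripts that are polyadenylated at a site beyond the stem-loop, or spliced. Poly(A) selection therefore retains only a part of histone mRNA, and the levels below are those of the retained RNA. In cultures such as these, fewer cells expressing a gene and less RNA per cell cannot be told apart.

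The stem-loop is shown because it marks the end of the tail-less mRNA. It was searched in GENCODE 29 transcripts (GRCh38) as a stem of 6 base pairs that opens with GG and closes with CC, around a loop of 4 bases TNTN with a T before it and an A after it. Of 65 coding histone genes with a coding transcript there, 29 held it anywhere in one (44.6%), in 6 versions, against 71 of 19539 other coding genes (0.363%). In the last 100 bases of the longest coding transcript it was in 4 of the 65 (6.15%), against 2 of 19538 (0.0102%). Many of the other histone models, H2BC12 and H1-2 among them, end at the coding sequence, so that no match says only that these letters are not in the model. An example of each version follows, with the 16 bases of the stem-loop in capitals, given as RNA-sense DNA letters.
H2AC13 (chr6:27808647-27808662, plus strand): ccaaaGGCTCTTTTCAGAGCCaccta
H4C8 (chr6:26285131-26285146, minus strand): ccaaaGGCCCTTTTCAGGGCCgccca
H2BC5 (chr6:26158587-26158602, plus strand): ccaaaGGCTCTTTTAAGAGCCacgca
H4C14 (chr1:149833032-149833047, plus strand): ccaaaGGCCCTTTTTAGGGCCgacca
H2AC11 (chr6:27133515-27133530, plus strand): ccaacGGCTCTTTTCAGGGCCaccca
H3C6 (chr6:26225596-26225611, plus strand): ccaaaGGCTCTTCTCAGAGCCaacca
The version shown for H2AC13 was the most frequent, in 15 genes of the H2A, H2B and H3 families. The version of H4C8 occurred in 5 genes and that of H4C14 in 3, all of them H4. The version of H2BC5 occurred in 4 genes, and the others in H2AC11 and in H3C6 alone. In 17 of the 29 genes a transcript also held the polyadenylation signal AATAAA after the stem-loop. The annotated H2AC13 transcript ran 39 bases past its stem-loop, whereas that of H3C10 ran 769, that of H3C14 1154 and the longest of H4C14 1167 bases past it.

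The promoters are shown because most of the H2B promoters hold an octamer, ATTTGCAT, the binding motif of POU-domain factors such as POU2F1. In RefSeq promoters of 300 bases (GRCh38.p14, both strands), it was found in 14 of 18 H2B, 11 of 16 H2A, 1 of 11 H3, 0 of 6 H1 and 0 of 13 H4 genes, together 26 of 64, or 40.6%. It was in 1.71% of 27241 other promoters. A back-to-back pair can share an octamer, so that the H2A and H2B counts are not independent, and the H3 gene, H3C4, has the same promoter window as H2AC7, so that this octamer was counted again. The octamer is in capitals in these windows.
H2BC12 (octamer starts at position -46 from the gene start): ctcttcaccttATTTGCATgagaggtccta
H2BC21 (position -46): tcggagccctaATTTGCATaaggtggttat
H2BC11 (position -47): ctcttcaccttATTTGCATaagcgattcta
H2BC18 (position -49): tgcgagtcttcATTTGCATacgggctctat
The letters CCAAT were in 54 of 64 histone promoters, 84.4%, against 35.6% of the others, and every H1, H2A, H2B and H3 promoter held them but only 3 of 13 H4 promoters did. TATAAA was in 42 of 64, 65.6%, against 11.8% of the others. A match is a description of these windows and not a measured binding site.

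Library totals ran from 43.0 to 130.1 M fragments. SA1+gRNA replicate 2 was the largest, and every count in it was an even number, against 47.7% to 48.7% of counts elsewhere. The parent genes of the transgenes followed the labels: ADAR had 1085 to 1603 CPM (counts scaled to library size with TMM factors) in the 6 SA1 and SA1Q libraries, against 297 to 340 in the other 8. ADARB1, which encodes ADAR2, had 940 to 1163 CPM in the 6 SA2 and SA2Q libraries, against 25.5 to 37.2 in the other 8. The simple epithelial markers KRT8, KRT18, KRT19, EPCAM and CDH1 summed to 513 to 675 CPM, and the neuronal filament and vimentin genes NEFL, NEFM, INA and VIM, known in 293 cells, to 1140 to 1471 CPM. Markers of fibroblasts summed to at most 11.1 CPM, and the endothelial genes PECAM1, VWF and CDH5 to at most 1.05 CPM. Blood markers, mainly CD68 and LCP1, summed to 122 to 181 CPM. On the first principal component of all genes, SA1Q+gRNA replicate 1 (-43.9) and ctrl replicate 1 (-39.65) stood apart from the other 12 libraries (0.3 to 13.7). Histone counts, medians and the calls of other named genes that involve them are given below also without them. Where a library is left out, a group with 1 library left is assumed to vary like the other groups.

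Histone transcripts made up a small part of every library. The 66 coding transcripts together held 7309 to 20934 fragments, which was 0.0147% to 0.0209% of a library. Their median level per length was 0.477 FPKM (fragments scaled to transcript length and library total), against 5.72 FPKM over all 16418 genes tested. Of the 66, 14 reached a mean of 1 CPM and 5 reached 10 CPM. The 5 most abundant in CPM held 77.3% of the summed level and the top 12 held 91.1%. H2B transcripts took 56.5% of the sum, H2A 21.9%, H1 9.37%, H4 7.15% and H3 5.04%. The nucleosome holds the core histones in equal amounts. These shares count fragments, are not scaled to transcript length and cover only retained RNA, so they cannot be set against those amounts.

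**Figure D1:**
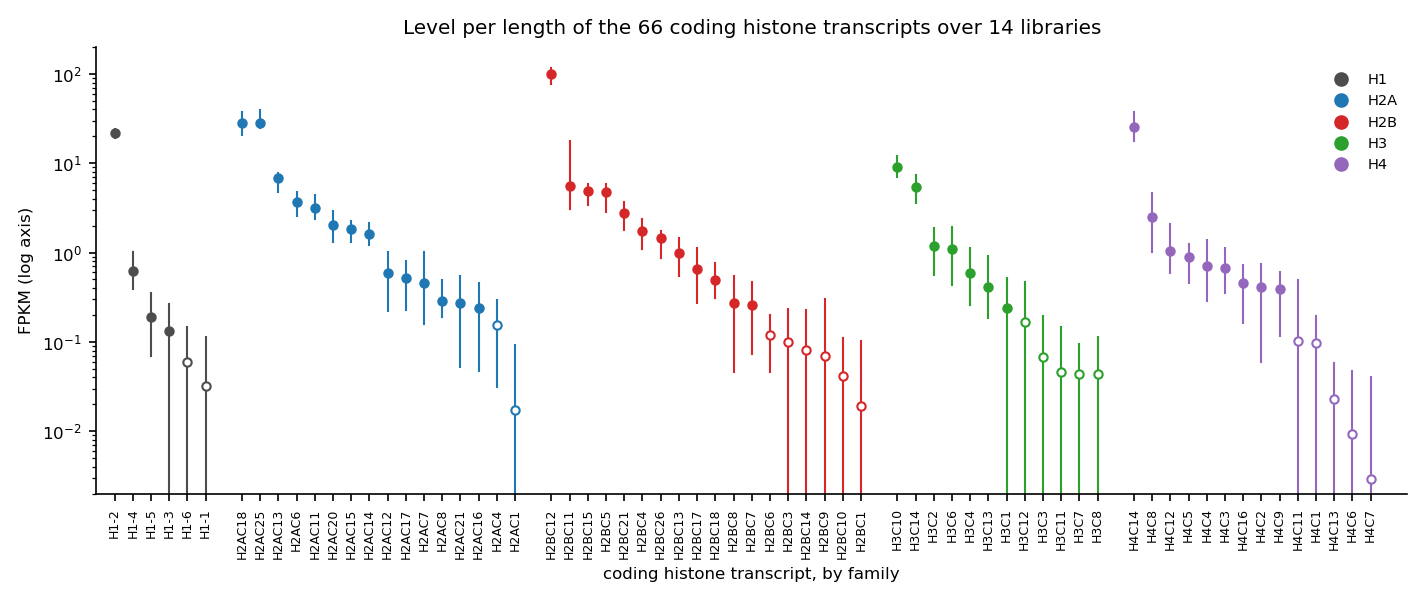
Level per length in FPKM, on a log axis, of the 66 coding histone transcripts, sorted within each family; points are means over 14 libraries, vertical lines run from the lowest to the highest library (clipped at the axis for 0), and open points did not pass the filter on low counts. H2BC12 is highest at 100.4 FPKM, and the means of 24 transcripts reach 1 FPKM.

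A single gene led. H2BC12, an H2B gene on chromosome 6 (hg19, 27106072 to 27114637, minus strand), averaged 100.4 FPKM and by itself held 42.6% to 49.7% of the summed CPM. Its listed transcript is 839 nt long but spans 8566 bases of the genome, so that the model is spliced. A further 3 listed transcripts were spliced in this sense, namely H2BC5 (813 nt over 13228 bases), H3C4 (921 nt) and H2BC18 (999 nt). Fragments counted to these 4 took 49.3% of the mean summed level. Whether the fragments came from spliced RNA was not tested. H2BC21 was the longest at 2223 nt without an intron. The remaining transcripts were short, and the median over all 66 was 464 nt, against 2922 nt over the genes tested. H2BC12 has a near-identical copy in H2BC12L and lies opposite H4C9 on the other strand, so its level is uncertain to the extent that the authors' counting shared fragments among them.

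After H2BC12, the order by mean FPKM was H2AC18 at 28.23, H2AC25 at 28.20, H4C14 at 25.7 and H1-2 at 22.0. Their ranges over libraries overlapped, except those of H2AC25 and H1-2: H2AC18 ran from 20.6 to 37.0, H2AC25 from 24.6 to 39.5, H4C14 from 17.9 to 37.5 and H1-2 from 19.2 to 24.1 FPKM. H3C10 (9.07) and H2AC13 (6.76) came next, followed by H2BC11 (5.49), H3C14 (5.38), H2BC15 (4.85), H2BC5 (4.70) and H2AC6 (3.69). Neighbours from H3C10 down overlapped in their ranges. Each family thus had 1 or 2 transcripts well above its others. H1-2, a linker histone, took nearly all of the H1 level, and the next H1 gene, H1-4, averaged 0.625 FPKM. Among H4 genes H4C14 was followed by H4C8 at 2.49 FPKM.

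At the low end, 20 of the 66 transcripts had too few fragments to be tested, the highest of them with a mean of 0.0837 CPM. Passing the filter were 4 of 6 H1, 14 of 16 H2A, 12 of 18 H2B, 7 of 12 H3 and 9 of 14 H4 transcripts, 46 in all. The testis genes H1-6, H2AC1 and H2BC1 were among those that did not pass. No coding transcript was at 0 in every library, whereas the pseudogene H2AC2P was. The other pseudogene, H2BC20P, held 368 fragments over all libraries. All 10 transcripts on chromosome 1 passed, and they held 28.0% of the summed level. The large cluster on chromosome 6 (hg19, 25726291 to 27861669) held 71.9% in 55 transcripts, 35 of which passed, and H4C16 on chromosome 12 held 0.104%.

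Genes of a back-to-back pair were far apart in level in some pairs and closer in others. There were 12 H2A and H2B pairs with 224 to 347 bases between their starts. The FPKM of the H2B gene over that of its partner was 171 for H2BC12 and 2.61 for H2BC15. It was 0.148 for H2BC13, 0.0510 for H2BC26 and 0.0502 for H2BC14, and between 0.476 and 1.72 in the remaining pairs. H2BC12 averaged 100.4 FPKM and its partner H2AC12 0.586 FPKM. The order was the other way for H2BC26 at 1.44 against H2AC25 at 28.2 FPKM, and for H2BC13 at 1.001 against H2AC13 at 6.76 FPKM. H2BC21 and H2AC20 lay close together per length, at 2.77 and 2.05 FPKM, but not in fragments, at 6.54 and 0.954 CPM. The H2BC21 transcript is 2223 nt long and that of H2AC20 437 nt. The H2B gene was the higher in 6 of the 12 pairs, among them H2BC1 and H2AC1 with only 8 and 6 fragments over all libraries. H2BC11 and H2AC11 are a pair that shares the octamer shown for H2BC11, at 5.49 and 3.19 FPKM.

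The summed level of the histone transcripts was higher in every library of the glutamine lines than in any library of the wild-type lines with guide. It was 227 and 190 CPM in SA1Q+gRNA, 193 and 214 in SA2Q+gRNA, 196 and 213 in SA1Q, and 202 and 192 in SA2Q, against 162 and 173 in SA1+gRNA and 165 and 181 in SA2+gRNA. The empty-vector libraries held the second highest and the lowest sum, 225 and 153 CPM. As means with SD over 2 libraries, the sums were 209 ± 26.2 CPM in SA1Q+gRNA, 203 ± 14.9 in SA2Q+gRNA, 205 ± 12.3 in SA1Q and 197 ± 7.43 in SA2Q. They were 168 ± 7.42 CPM in SA1+gRNA, 173 ± 11.5 in SA2+gRNA and 189 ± 50.9 in ctrl. Without H2BC12, the glutamine libraries held 100.1 to 130.4 CPM, the wild-type libraries with guide 83.0 to 92.3 CPM, and ctrl 128 and 85.4 CPM.

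**Figure D2:**
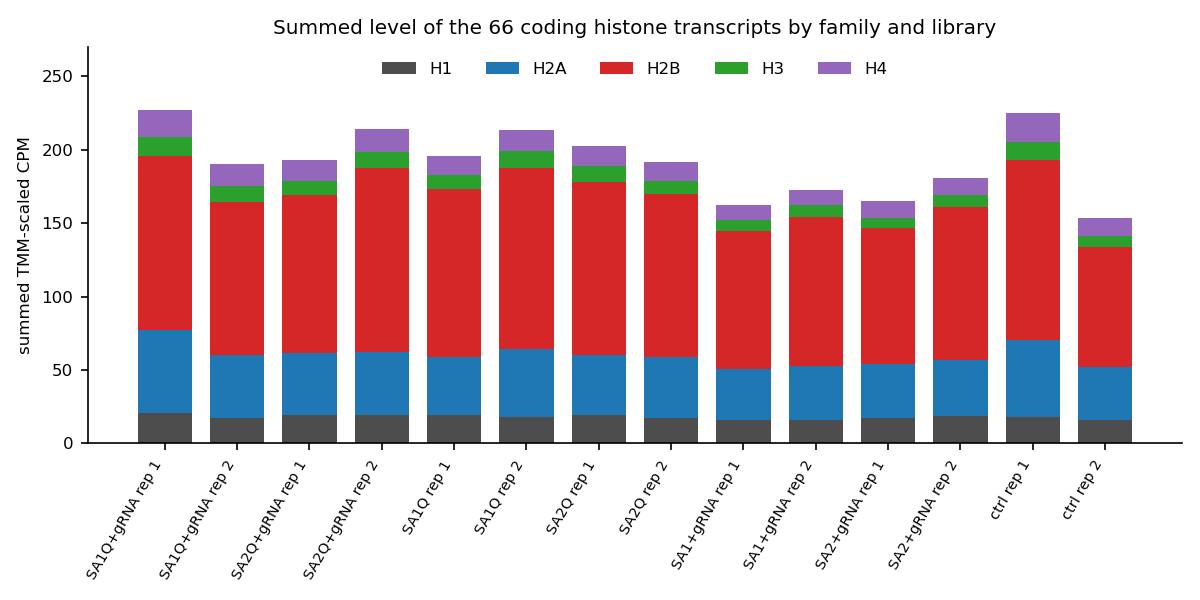
Summed level in TMM-scaled CPM of the 66 coding histone transcripts in each of the 14 libraries, stacked by family. The 8 bars of the glutamine lines reach 190 to 227, the 4 bars of SA1+gRNA and SA2+gRNA 162 to 181, and the 2 ctrl bars 225 and 153.

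The difference between the ctrl replicates was shared by most of the transcripts. Replicate 1 lay above replicate 2 in 39 of 46 transcripts, with a median log2 difference of 0.50, against a median of -0.01 over all genes, of which 48.2% lay above. In SA1Q+gRNA, whose replicate 1 also stood apart, 36 of 46 lay above and the median was 0.27. In the remaining groups the median was between -0.15 and 0.07. The 242 other tested genes of at most 600 nt moved in the same direction in these 2 groups, with medians of 0.16 in SA1Q+gRNA and 0.25 in ctrl. An offset for transcript length was therefore tried in the fit, and its values stand below for some of the comparisons. RNA45SN5, the ribosomal RNA precursor, which has no poly(A) tail, had 11992 and 2706 CPM in SA1Q+gRNA and 4108 and 6331 CPM in ctrl, so that it was higher in replicate 1 of SA1Q+gRNA and lower in replicate 1 of ctrl.

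**Figure D3:**
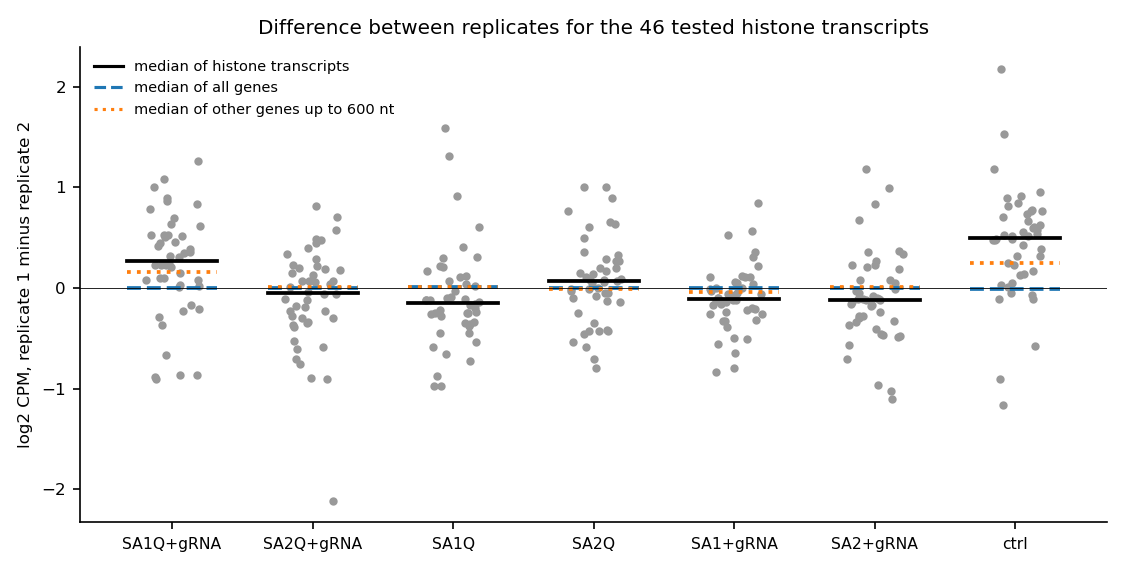
Log2 CPM of replicate 1 minus replicate 2 for the 46 tested histone transcripts (points) in each group, with the median of these transcripts (solid), of all genes (dashed) and of other genes up to 600 nt (dotted). The solid line is at 0.50 in ctrl and 0.27 in SA1Q+gRNA, and between -0.15 and 0.07 in the other groups.

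The glutamine forms were compared with the wild-type forms of the same deaminase, both with guide. For ADAR1, most histone transcripts lay higher in SA1Q+gRNA than in SA1+gRNA: 36 of 46 had a log2 change above 0, 78.3% against 50.3% of all genes, with a median of 0.41 against 0.00. None was called at an adjusted p under 0.05 by edgeR's quasi-likelihood test, which called 0.962% of all genes. At an unadjusted p under 0.05 there were 9 transcripts (19.6%, against 17.4% of all genes), all higher in SA1Q+gRNA, and DESeq2 called 3, H2AC18, H4C8 and H4C14 (3.57% of all genes). Libraries of the 2 groups did not overlap for 26 of 46 transcripts that lay higher in SA1Q+gRNA, 56.5%, where 20.6% of all genes did so, and for 1, H2BC7, that lay lower (21.2% of all genes).

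H2AC18, an H2A gene on chromosome 1 (hg19, 149813785 to 149814318, minus strand, 1 of 2 listed positions), had the smallest p. It had 21.8 and 17.0 CPM in SA1Q+gRNA, against 11.7 and 12.7 CPM in SA1+gRNA, a log2 change of 0.66 (SE 0.18, adjusted p = 0.0882, edgeR). H4C14, an H4 gene on the same chromosome (hg19, 149832330 to 149832725, minus strand, 1 of 2 listed positions), had 14.05 and 11.35 CPM in SA1Q+gRNA, against 8.19 and 7.60 CPM in SA1+gRNA (log2 change 0.68, SE 0.18, adjusted p = 0.0911, edgeR). In both genes the libraries of the 2 groups did not overlap. H2BC5, whose listed transcript is spliced, had 4.58 and 4.53 CPM in SA1Q+gRNA, against 2.71 and 3.15 CPM in SA1+gRNA (log2 change 0.62, SE 0.19, adjusted p = 0.12, edgeR). The H3 gene H3C14 had 4.12 and 3.20 CPM, against 1.91 and 2.41 CPM in SA1+gRNA (0.73, SE 0.24, adjusted p = 0.145). H2BC12, the most abundant, differed by less, with 96.6 and 86.9 CPM in SA1Q+gRNA and 79.3 and 86.0 CPM in SA1+gRNA (0.15, SE 0.13, adjusted p = 0.587). Without SA1Q+gRNA replicate 2, which leaves that group with the library that stood apart, 6 transcripts were called, all higher, 13.0% against 12.7% of all genes. Without both libraries that stood apart 2 were called (4.35%, against 1.35% of all genes), H2AC18 (log2 change 0.47) and H4C14 (0.53), with 33 of 46 above 0 and a median of 0.24. With the offset for transcript length the same 2 were called (3.0% of all genes), and the median was 0.37.

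For ADAR2, 35 of 46 transcripts lay higher in SA2Q+gRNA than in SA2+gRNA, 76.1% against 50.2% of all genes, with a median log2 change of 0.27 against 0.00. Without SA2+gRNA replicate 2 the median was 0.42. Neither group holds a library that stood apart. None was called by edgeR, which called 0.0122% of all genes, and none by DESeq2 (0.347%). At an unadjusted p under 0.05 there were 8 (17.4%, against 7.86% of all genes), all higher in SA2Q+gRNA. Libraries did not overlap for 22 transcripts that lay higher, 47.8%, where 23.7% of all genes did so, and for 1, H2AC25, that lay lower (24.1% of all genes). H2BC21 had the smallest p, with 8.13 and 7.00 CPM in SA2Q+gRNA, against 4.92 and 5.31 CPM in SA2+gRNA (log2 change 0.56, SE 0.18, adjusted p = 0.451, edgeR). H2AC18 had 17.9 and 17.2 CPM, against 13.2 and 12.7 CPM in SA2+gRNA (0.44, SE 0.18, adjusted p = 0.561), and was the 1 transcript called when both libraries that stood apart were left out of the fit (2.17%, against 0.725% of all genes).

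The 2 comparisons share no library. Read together, 11 of 46 transcripts, 23.9%, lay higher in all 4 libraries of SA1Q+gRNA and SA2Q+gRNA than in all 4 of SA1+gRNA and SA2+gRNA, where 4.09% of all genes did so. None lay lower in this way, against 4.51% of all genes. The 11 came from every core family and were H2AC11, H2AC13, H2AC15, H2AC18, H2BC5, H2BC21, H3C10, H3C13, H3C14, H4C8 and H4C14. No H1 gene was among them. With the glutamine lines without guide added, 7 of 46 (15.2%) lay higher in all 8 glutamine libraries than in the 4 wild-type libraries, against 1.23% of all genes, and none lay lower in this way (1.83%). The 7 were H2AC11, H2AC13, H2AC18, H2BC5, H2BC21, H3C14 and H4C14. Without SA1Q+gRNA replicate 1 the counts were 12 (26.1%, against 5.4% of all genes) and 7 (1.48% of all genes). Transcripts of a library share its RNA and its preparation and are not independent of each other, and the glutamine and wild-type forms sit in separate cell lines, so that line and enzyme form cannot be told apart.

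**Figure D4:**
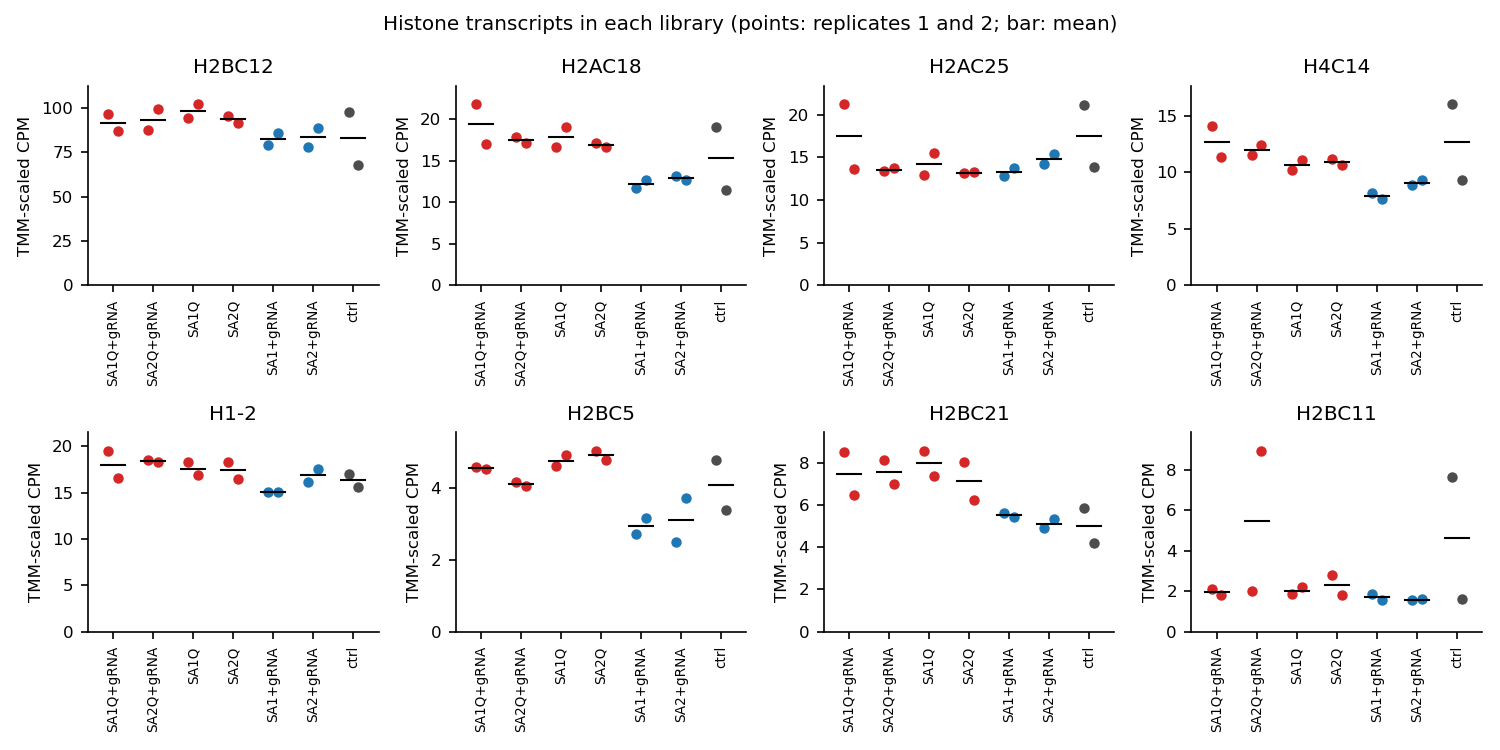
TMM-scaled CPM of 8 histone transcripts in each library, with the 2 replicates of a group as points (glutamine lines red, wild-type lines blue, ctrl grey) and their mean as a bar; each axis starts at 0. H2AC18, H4C14, H2BC5 and H2BC21 are higher in all 8 red libraries than in the 4 blue ones, H2BC12 and H1-2 overlap, and H2BC11 is high in 1 SA2Q+gRNA and 1 ctrl library.

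Against the empty vector, the glutamine lines without guide showed no common direction. In SA1Q 22 of 46 transcripts lay above ctrl, with a median log2 change of 0.00, and in SA2Q 25 of 46, with a median of 0.03. No transcript was called in either by edgeR, which called 2.8% of all genes in SA1Q and 0.0853% in SA2Q. At an unadjusted p under 0.05 there were 2 in SA1Q (4.35%, against 21.2% of all genes) and 4 in SA2Q (8.7%, against 8.86%). DESeq2 called 1 in SA1Q, H2BC21 (6.48% of all genes), and 0 in SA2Q (0.554%). H2BC21 (hg19, chromosome 1, 149856010 to 149858232, minus strand) had 8.57 and 7.38 CPM in SA1Q, 8.03 and 6.25 CPM in SA2Q, and 5.85 and 4.18 CPM in ctrl. Its log2 change was 0.68 in SA1Q (SE 0.18, adjusted p = 0.0597, edgeR) and 0.51 in SA2Q (SE 0.18, adjusted p = 0.388, edgeR). In both the libraries lay above ctrl without overlap, as did 6 of 46 histone transcripts (13.0%) in each. Of all genes, 24.1% did so in SA1Q and 19.8% in SA2Q. H2AC13 had 3.74 and 3.65 CPM in SA1Q, 3.64 and 3.85 CPM in SA2Q, and 3.30 and 2.35 CPM in ctrl (log2 changes of 0.40 and 0.42, SE 0.17 each, adjusted p = 0.191 and 0.466).

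These values rest on which ctrl library is used. Without ctrl replicate 1, edgeR called H2AC18, H2BC12 and H2BC21 higher in SA1Q (6.52%, against 1.92% of all genes). Without ctrl replicate 2 it called H4C14 lower, by a log2 change of -0.59 (2.17%, against 5.03% of all genes), and the median was -0.21 in SA1Q and -0.19 in SA2Q. Without both libraries that stood apart the median log2 change was 0.27 in SA1Q, with 35 of 46 above 0, and 0.34 in SA2Q, with 31 of 46 above 0. H2AC13, H2AC18, H2BC12 and H2BC21 were then called higher in SA1Q (8.7%, against 7.46% of all genes), and H2AC18, H2BC12 and H2BC21 in SA2Q (6.52%, against 3.47%). In each of these fits ctrl had 1 library. The median in SA1Q was 0.08 without SA1Q replicate 1 and -0.13 without SA1Q replicate 2. With the offset for transcript length it was 0.11, with 29 of 46 above 0 and H2BC12 and H2BC21 called higher (4.35%, against 5.71% of all genes). Both comparisons share the ctrl libraries.

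The wild-type lines with guide mostly lay below ctrl, and here too the direction depended on ctrl replicate 1. In SA1+gRNA 32 of 46 transcripts lay below ctrl and in SA2+gRNA 35 of 46, with a median log2 change of -0.26 in each. None was called by edgeR, which called 0.0426% of all genes in SA1+gRNA and 0.104% in SA2+gRNA. At an unadjusted p under 0.05 there were 4 in SA1+gRNA (8.7%, against 10.7% of all genes) and 3 in SA2+gRNA (6.52%, against 10.2%), all lower. DESeq2 called H4C14 in SA1+gRNA (0.615% of all genes) and 0 in SA2+gRNA (0.804%). H4C14 had 8.19 and 7.60 CPM in SA1+gRNA and 8.82 and 9.32 CPM in SA2+gRNA, against 16.03 and 9.32 CPM in ctrl. Its log2 change was -0.68 in SA1+gRNA (SE 0.18, adjusted p = 0.249) and -0.47 in SA2+gRNA (SE 0.19, adjusted p = 0.379). H4C8, another H4 gene, had 0.401 and 0.793 CPM in SA1+gRNA and 0.586 and 0.812 CPM in SA2+gRNA, against 1.89 and 1.12 CPM in ctrl, with log2 changes of -1.24 (SE 0.36, adjusted p = 0.298) and -1.07 (SE 0.38, adjusted p = 0.324). In each comparison 13 of 46 transcripts, 28.3%, lay below ctrl in both libraries, where 18% of all genes did so in SA1+gRNA and 17.2% in SA2+gRNA. Without both libraries that stood apart the medians turned to 0.07 and 0.10, with 27 of 46 above 0 in each. Without ctrl replicate 2, which leaves the ctrl library that stood apart, the medians were -0.58 and -0.51. H4C14 was then called lower in both, 2.17% against 0.134% of all genes in SA1+gRNA and 0.164% in SA2+gRNA. Enzyme and guide cannot be told apart against ctrl.

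Adding the guide to the glutamine lines was followed by small differences. In SA1Q+gRNA 31 of 46 transcripts lay above SA1Q with a median log2 change of 0.17, and in SA2Q+gRNA 28 of 46 lay above SA2Q with a median of 0.06. Without SA2Q replicate 2 the median in SA2Q+gRNA was -0.01, with 23 of 46 above 0, and without SA2Q replicate 1 it was 0.12. None was called by edgeR or DESeq2, and neither called any of the 16418 genes, 0% in both comparisons. At an unadjusted p under 0.05 there were 5 in SA1Q+gRNA (10.9%, against 12.2% of all genes) and 0 in SA2Q+gRNA, against 1.77% of all genes. H2AC20 had 1.34 and 1.31 CPM in SA1Q+gRNA, against 0.639 and 0.772 CPM in SA1Q (log2 change 0.91, SE 0.28, adjusted p = 0.387, edgeR). H2BC7 had 0.0772 and 0.0328 CPM in SA1Q+gRNA, against 0.183 and 0.215 CPM in SA1Q (-1.92, SE 0.74, adjusted p = 0.387), where 3 fragments correspond to 0.0504 to 0.0746 CPM in SA1Q+gRNA. Without both libraries that stood apart, the median in SA1Q+gRNA was 0.04, with 24 of 46 above 0, and with the offset for transcript length it was 0.01, with 23 of 46 above 0. It was 0.02 without SA1Q replicate 1 and 0.28 without SA1Q replicate 2. H2AC25 was called higher in SA1Q+gRNA (log2 change 0.57) when replicate 2 was left out, which leaves the library that stood apart as the only one of its group; 13.0% of all genes were then called.

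The difference between the guide's effect in SA1Q and in SA2Q was also tested. None of 46 transcripts was called by edgeR or DESeq2, and again 0% of all genes, with 2 transcripts at an unadjusted p under 0.05 (4.35%, against 5.66% of all genes). They were H2BC7 (log2 difference -2.60, SE 0.99, adjusted p = 0.713) and H4C16 (1.96, SE 0.85, adjusted p = 0.713). Both rest on few fragments. Group means were 0.0550 to 0.199 CPM for H2BC7 and 0.107 to 0.323 CPM for H4C16 in these groups. In their libraries 3 fragments correspond to 0.0467 to 0.0746 CPM. The median over the 46 was 0.13, and -0.08 without both libraries that stood apart; leaving out 1 library at a time it ran from -0.08 to 0.25. With the offset for transcript length 23 of 46 lay above 0.

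**Figure D5:**
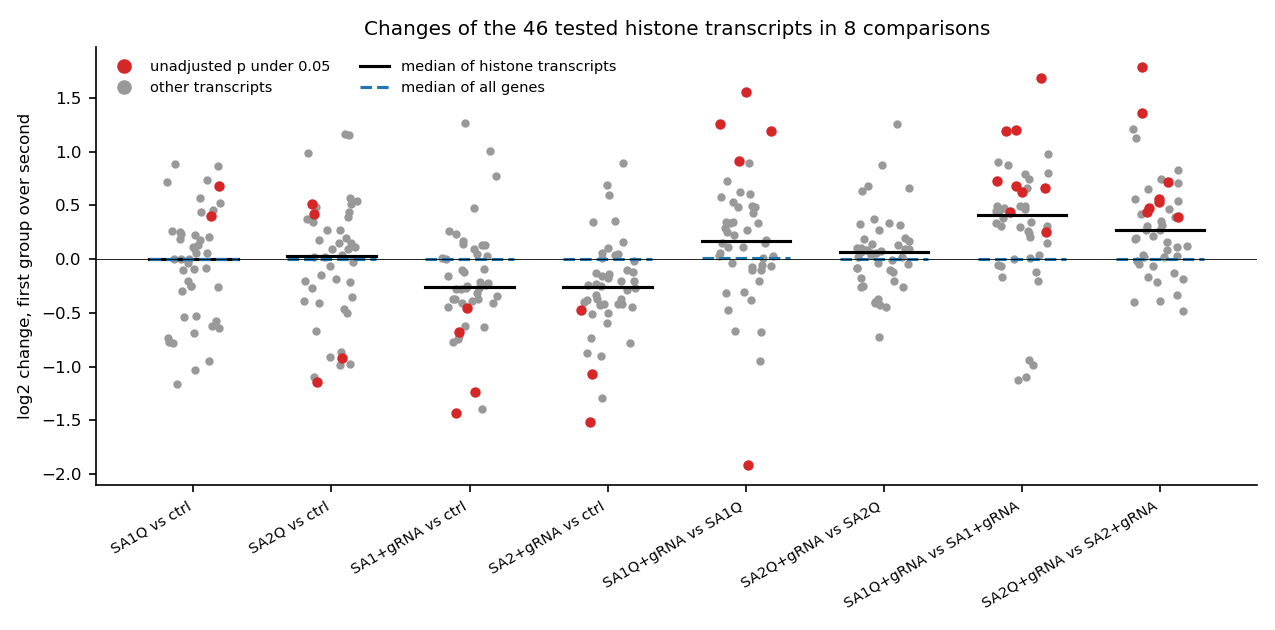
Log2 change of the 46 tested histone transcripts in 8 comparisons, first-named group over second, with transcripts at an unadjusted p under 0.05 in red; bars are the median of these transcripts (solid) and of all genes (dashed). The medians are 0.41 and 0.27 for the glutamine forms over the wild-type forms with guide, -0.26 for both wild-type forms over ctrl, and between 0.00 and 0.17 elsewhere.

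Over all 7 groups, edgeR's test of any difference called none of the 46 transcripts and 1.57% of all genes. At an unadjusted p under 0.05 there were 7 transcripts, 15.2% against 16.8% of all genes. The smallest adjusted p was that of H2BC21 (0.117), followed by H2BC5 (0.148). DESeq2 called H2AC18, H2BC5, H2BC21 and H4C14, and 8.23% of all genes. When both libraries that stood apart were left out, edgeR called these 4 together with H2BC11 and H2BC12, 13.0% against 11.3% of all genes. H2BC5 had 4.58 and 4.53 CPM in SA1Q+gRNA, 4.16 and 4.05 in SA2Q+gRNA, 4.60 and 4.91 in SA1Q, and 5.04 and 4.77 in SA2Q. It had 2.71 and 3.15 CPM in SA1+gRNA, 2.48 and 3.72 in SA2+gRNA, and 4.78 and 3.37 in ctrl, so that only ctrl reached across both sets of lines. In SA2Q+gRNA against SA2Q its log2 change was -0.26 (SE 0.19, adjusted p = 0.9997, edgeR). Its libraries lay below without overlap, as did 3 of 46 histone transcripts (6.52%) and 19.5% of all genes.

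Transcripts differed in how much they varied between single libraries. Among those with a mean of at least 1 CPM, H2BC11 had the widest range, 5.71 times between the highest and the lowest library. It had 8.97 CPM in SA2Q+gRNA replicate 2 and 7.64 CPM in ctrl replicate 1, and 1.57 to 2.82 CPM in the other 12. The other replicate of SA2Q+gRNA had 1.99 CPM and that of ctrl 1.61 CPM. The log2 change of H2BC11 in SA2Q+gRNA was 1.25 against SA2Q (SE 0.59, adjusted p = 0.9997) and 1.79 against SA2+gRNA (SE 0.62, adjusted p = 0.497). Without SA2Q+gRNA replicate 2 it was -0.21 against SA2Q and 0.33 against SA2+gRNA. Its back-to-back partner H2AC11 had 2.12 and 2.01 CPM in SA2Q+gRNA and 2.34 and 1.29 CPM in ctrl, with no such peak in SA2Q+gRNA replicate 2. The next widest ranges were 2.15 times for H3C14, 2.11 for H4C14, 2.05 for H2BC21, 2.03 for H2BC5, 1.92 for H2AC6, 1.90 for H2AC18 and 1.89 for H2AC11.

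Genes that act on histone mRNA or histone protein were examined beside the members. Of 32 tested genes of histone mRNA synthesis, 3' end processing and decay, none was called over the 7 groups by edgeR (7 at an unadjusted p under 0.05, 3 called by DESeq2), against 1.57% of all genes called by edgeR, 16.8% at an unadjusted p under 0.05 and 8.23% called by DESeq2. CPSF1, LSM1 and CCNE2 were called without both libraries that stood apart, and 11.3% of all genes. SLBP, which binds the stem-loop, ran from 121 to 145 CPM (adjusted p = 0.436). The smallest p-values were those of CPSF1 and FIP1L1, of the cleavage and polyadenylation machinery, and CCNE2, a cyclin of S phase entry (adjusted p = 0.137, 0.184 and 0.156). In SA1Q against ctrl, ERI1, the exoribonuclease that trims the stem-loop end, rose to 45.4 and 41.7 CPM in SA1Q, against 32.8 and 34.4 CPM in ctrl (log2 change 0.37, SE 0.09, adjusted p = 0.0340, edgeR). It was the 1 gene of this list called there, while 2.8% of all genes were. Without both libraries that stood apart its log2 change was 0.34 (adjusted p = 0.0385), and leaving out 1 library at a time its adjusted p ran from 0.0161 to 0.262.

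Of 28 S phase and DNA replication genes, none was called over the 7 groups by edgeR (4 at an unadjusted p under 0.05, 2 called by DESeq2), beside the same shares of all genes. CDT1, RRM2 and FEN1 were called without both libraries that stood apart, and 11.3% of all genes. The licensing factor CDT1 (adjusted p = 0.153), the ribonucleotide reductase subunit RRM2 (0.196) and the polymerase subunit POLD1 (0.229) had the smallest p. CDT1 fell to 132 and 146 CPM in SA1Q, against 229 and 193 CPM in ctrl (log2 change -0.60, SE 0.14, adjusted p = 0.0356, edgeR), where 2.8% of all genes were called. Its log2 change in SA1Q was -0.47 without both libraries that stood apart. In SA2Q and in SA1+gRNA against ctrl CDT1 was not called but also had the smallest p of this list. In SA1Q+gRNA against SA1+gRNA, where the histone median was 0.41, the median of this list was -0.07 with 11 of 28 above 0, and -0.08 with 8 of 28 above 0 without both libraries. In SA2Q+gRNA against SA2+gRNA it was -0.01 with 10 of 28 above 0, and no gene of the list was called in either.

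Among histone variant genes that are expressed outside S phase and polyadenylated, the H2A variant gene H2AZ1 ran from 446 to 556 CPM (adjusted p = 0.297 over the 7 groups, edgeR), and the linker histone gene H1-10 ran from 203 to 349 CPM (adjusted p = 0.343). H1-10 was highest in SA1Q+gRNA replicate 1, one of the libraries that stood apart. Of 22 histone chaperones none was called over the groups (5 at an unadjusted p under 0.05, 2 called by DESeq2), where 16.8% of all genes had such a p and DESeq2 called 8.23%. TONSL, NAP1L1 and NPM1 had the smallest adjusted p (0.0651, 0.0765 and 0.218, edgeR). Without both libraries that stood apart TONSL, NAP1L1, NPM1 and ASF1B were called, beside the share of all genes given above for that fit. TONSL, which binds new H4 on replicated DNA, fell to 55.8 and 60.4 CPM in SA1Q, against 85.8 and 91.9 CPM in ctrl (-0.61, SE 0.10, adjusted p = 0.00815, edgeR), where 2.8% of all genes were called. In SA2Q and in SA1+gRNA against ctrl TONSL was not called but also had the smallest p of this list. NAP1L1, a chaperone of H2A and H2B, fell to 531 and 539 CPM in SA1Q+gRNA, against 732 and 653 CPM in SA1+gRNA (-0.37, SE 0.08, adjusted p = 0.0352), where 0.962% of all genes were called. The log2 changes without both libraries that stood apart were -0.66 for TONSL (adjusted p = 0.000765) and -0.36 for NAP1L1 (0.0260). Leaving out 1 library at a time, the adjusted p ran from 0.00127 to 0.107 for TONSL and from 0.0171 to 0.370 for NAP1L1.

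Of 6 tested RNAs that lack a poly(A) tail, RNA45SN5, SCARNA12 and RPPH1 among them, none was called over the groups by edgeR or DESeq2, and none had an unadjusted p under 0.05. RNA45SN5 was called without both libraries that stood apart, beside the share of all genes given above for that fit. The summed level of all 9 such RNAs, tested or not, was nearly all RNA45SN5. The sum was 11999 and 2711 CPM in SA1Q+gRNA, 2847 and 3260 in SA2Q+gRNA, 3321 and 6267 in SA1Q, and 5652 and 6930 in SA2Q. It was 2739 and 2378 CPM in SA1+gRNA, 4152 and 8559 in SA2+gRNA, and 4114 and 6338 in ctrl. In this sum SA1Q+gRNA replicate 1 was the highest and SA2+gRNA replicate 2 the second highest. Their histone sums were 227 CPM, the highest of all libraries, and 181 CPM, below all 8 libraries of the glutamine lines. Whether the 2 sums are related was not tested.

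As a description of which genes had the most similar pattern over the 14 libraries, Pearson's r of log2 CPM with the log2 summed histone level was computed for 13418 genes with a mean of at least 1 CPM. The highest were POLE4 (0.934), RANGRF (0.929), U2AF1 (0.928), SLC25A35 (0.924), AIMP2 (0.919), BCL2L2-PABPN1 (0.918), PSMB6 (0.918), MCRS1 (0.917), MRPS18B (0.916) and COPS6 (0.914). POLE4, a subunit of DNA polymerase epsilon with a histone fold, ran from 24.5 to 39.0 CPM. The lowest were MFSD6 (-0.966), PLCG2 (-0.940), WASHC5 (-0.920), POFUT4 (-0.920) and COL4A3 (-0.906). In all, 1.53% of the genes had an r over 0.8. The values of a library share its depth and preparation, and the extremes of the histone level include both libraries that stood apart. Over the other 12 libraries the r of the 10 highest was between 0.873 (COPS6) and 0.983 (BCL2L2-PABPN1), and that of the 5 lowest between -0.960 (MFSD6) and -0.883 (POFUT4).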

How the data were processed

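Libraries were made from poly(A)-selected RNA with a stranded kit and sequenced paired-end, per the labels' protocols. Trim Galore, STAR 2.4.2a and hg19 are named, without a role, per the submitters' processing notes; how fragments were counted, with which use of strand and of multiple matches, is not given in the sources used here. Each deposited file lists 46830 RefSeq transcripts with whole-number fragment counts, which the authors left unnormalized, FPM, and FPKM, which per the file headers is the count scaled by the authors to size and library total. The members and gene lists were chosen with earlier results of these data known.

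Of 45595 accessions, 98.6% were named through RefSeq (GRCh38.p14) and GENCODE tables, and 649 were not. Entries without a name held 0.809% of counts and were left out. Each gene was read from its transcript of at least 200 nt with the highest mean FPM. Coordinates of genes are hg19 as in the files, and GRCh38 is used only for sequences.

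Counts were tested with edgeR 4.0.16 (R 4.3.3; TMM, filterByExpr with a minimum count of 10, quasi-likelihood, two-sided) in 1 fit over 14 libraries without a covariate. P-values were adjusted by Benjamini-Hochberg over all 16418 genes tested within each of 10 tests, and an adjusted p under 0.05 was called. The fit left 7 residual degrees of freedom, and its common biological coefficient of variation was 8.67%. The fit was tested on simulated data. Alternatives were RLE scaling, DESeq2 1.42.0, no filter, leaving out libraries, a replicate block, a length offset, the even counts halved, and summed transcripts of a gene. CPM are TMM-scaled, and differences between replicates are of log2(CPM + 0.1). A count of 3 fragments was taken as the floor. Medians over the histone transcripts under the alternatives, counts of transcripts without overlap when libraries are left out, shares of all genes called under the alternatives, and values of the gene lists without both libraries that stood apart were added after seeing the data.

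Named members were the 12 highest in FPKM, the 2 with the smallest p in each test without a call, and the 8 with the widest range at a mean of at least 1 CPM; others named were chosen after their values were seen. From each list the 3 with the smallest p over the groups were named, and called genes beyond these were chosen after their values were seen. A result on the histone variant list is not reported here. Nothing in the sources says that equal replicate numbers share a source. H2AC7 and H3C4 overlap on 1 strand, and H2BC12 and H4C9, and H2BC18 and FCGR1A, on opposite strands, so their counts are uncertain.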

Additional observations from a re-analysis of the deposited data

How the results depend on the processing

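No histone transcript was called by edgeR as reported, and 22 alternatives were run for each of the 10 tests. Over the 7 groups the count of called histone transcripts was 4 with DESeq2 (8.7%, against 8.23% of all genes). It was 3 with no filter (6.52%, against 3.28%) and 4 with the length offset (8.7%, against 3.95%). In SA1Q against ctrl it was 1 with DESeq2 (2.17%, against 6.48% of all genes). It was also 1 with no filter (2.17%, against 2.89%), and 2 with the length offset (4.35%, against 5.71%). In SA1Q+gRNA against SA1+gRNA it was 3 with DESeq2 (3.57% of all genes). With no filter and with the length offset it was 2 each (4.35%, against 1.75% and 3.0% of all genes). With DESeq2 it was 1 in SA1+gRNA against ctrl (0.615% of all genes). Calls without both libraries that stood apart are given above, beside the share of all genes. The causes were not tested. Leaving out 1 library at a time gave 0 to 3 calls over the 7 groups and in SA1Q against ctrl, 0 to 6 in SA1Q+gRNA against SA1+gRNA, and 0 to 1 in both wild-type lines against ctrl and in SA1Q+gRNA against SA1Q. It gave 0 in the other 4. The counts over all genes under the alternatives are given below. The log2 change of H2BC11 in SA2Q+gRNA against SA2Q turned to -0.21 without SA2Q+gRNA replicate 2, and was up to 1.96 without another library.

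Of 21 pairs of groups, 2 had a correlation of same-numbered deviations over 0.1 (range -0.14 to 0.44). The highest, 0.44, was between SA1Q+gRNA and ctrl, the groups whose replicate 1 stood apart. The other was 0.12, between SA1Q and SA1+gRNA. Whether same-numbered libraries share a source cannot be told from these values. With the replicate number as a block, edgeR called H2BC21 in SA1Q against ctrl (adjusted p = 0.0394). This was 1 transcript, 2.17% against 1.85% of all genes, and no other count of histone calls moved.

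Counts over all genes moved more. They ranged from 85 to 1850 over the 7 groups (258 as reported), from 38 to 1225 in SA1Q against ctrl (460), from 2 to 570 in SA2Q against ctrl (14), from 4 to 383 in SA1+gRNA against ctrl (7), from 4 to 469 in SA2+gRNA against ctrl (17), from 17 to 2090 in SA1Q+gRNA against SA1+gRNA (158), from 1 to 119 in SA2Q+gRNA against SA2+gRNA (2) and from 0 to 2134 in SA1Q+gRNA against SA1Q (0). As reported, 52 of 66 transcripts had a mean under 1 CPM.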
